A study of Mus musculus with 12 samples.

Results

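Oligodendrocyte precursor and myelin genes (Olig1, Olig2, Pdgfra, Cspg4, Gpr17, Mbp, Cnp and Bcas1) were followed through single cells of the newborn mouse cortex. They were taken by name as listed precursor and myelin genes and not by their levels, and all 8 were present among the 18879 genes of the expression table. The mice, C57BL/6J by the labels and C57BL/6N in the study's methods, carried a frameshift deletion of 7 bp in exon 6 of Myt1l, which is predicted to end the protein at residue 78, and prefrontal cortex was dissociated at postnatal day 0. The 3 libraries compared were labelled HET (Myt1l +/−), HOM (Myt1l −/−) and WT (Myt1l +/+). Each was made from 2 pooled animals and was entered as 4 samples with file numbers in their titles, which gives the 12 samples of the series. The libraries held 12072, 13688 and 10503 cells in the order HET, HOM, WT, and every cell carried 1 of 21 cell type names given by the authors. The deletion was in the germline, so glia and neurons of a mutant carried it alike.

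With 1 library a genotype there was no replicate, and no test between genotypes was possible. Animals, library and genotype cannot be told apart, and the intervals below cover counting error within a library only. Myt1l RNA did not follow the labels, at 449.7, 709.8 and 370.3 counts per 1000000 over all cells of the libraries labelled HET, HOM and WT. A short frameshift deletion need not lower the RNA, so this is no check of the names. The overview of cell numbers published with the study assigns the same libraries to the genotypes in another order. The names used here are those of the deposited cell table, and each direction given below is one between libraries so labelled. In the other order the library labelled HET would be the wild type, the one labelled HOM heterozygous and the one labelled WT homozygous. The log2 ratio of Olig1 in Ganglionic eminences, the largest of the members, would then be 0.98 in heterozygous and −0.79 in homozygous cells, and that of Olig2 in Oligodendrocytes 0.06 and 0.49. Xist, the X-inactivation RNA of female cells, was seen in 2, 1 and 2121 cells of the libraries labelled HET, HOM and WT. Y-linked transcripts were seen in 1865, 2086 and 603 cells, so the library labelled WT held both kinds. The libraries thus also differed in the sex of their animals, which cannot be told apart from genotype. Cell barcodes were shared between 2 libraries in 645 cases and among all 3 in 3 cases, which involved 35 of the cells named Oligodendrocytes.

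Oligodendrocytes, the myelin-forming glia of the central nervous system, arise from precursor cells that divide, migrate and later stop dividing to wrap axons. The transcription factors OLIG1 and OLIG2 set up the lineage in ventral forebrain progenitors, and OLIG2 also acts in some astrocyte and neuron precursors. PDGFRA, the receptor for the mitogen PDGF-A, and the proteoglycan NG2, encoded by Cspg4, mark precursors, although NG2 is also made by pericytes and PDGFRA by fibroblasts. GPR17 and BCAS1 mark cells leaving the precursor state, and CNP and MBP are a myelin enzyme and a structural myelin protein. In the rodent cortex most myelin forms after birth.

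MYT1L and its relatives bind DNA through zinc fingers at a core of 6 letters, AAAGTT. The sequence before the start of 4 of the 8 genes (Olig2, Pdgfra, Cspg4 and Cnp) was available in the RefSeq promoter windows of build GRCm38.p6 and is shown up to the first annotated start, to let that core be read beside the expression of the same genes. Capitals mark AAAGTT or, for the other strand, AACTTT. The gene is on the plus strand in each case.
Olig2 (chr16:91225300-91225456): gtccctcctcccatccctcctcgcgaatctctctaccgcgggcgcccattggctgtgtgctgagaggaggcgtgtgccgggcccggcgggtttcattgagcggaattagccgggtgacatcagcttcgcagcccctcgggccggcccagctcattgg
Pdgfra (chr5:75152001-75152250): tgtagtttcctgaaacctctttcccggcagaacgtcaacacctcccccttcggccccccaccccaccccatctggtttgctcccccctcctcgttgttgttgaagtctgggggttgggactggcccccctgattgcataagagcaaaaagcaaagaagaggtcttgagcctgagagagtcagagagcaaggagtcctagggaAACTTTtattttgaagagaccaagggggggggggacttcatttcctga
Cspg4 (chr9:56864854-56865032): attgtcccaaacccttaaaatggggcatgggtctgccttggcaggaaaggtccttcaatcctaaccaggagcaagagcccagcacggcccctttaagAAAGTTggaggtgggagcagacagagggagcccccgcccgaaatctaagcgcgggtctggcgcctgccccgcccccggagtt
Cnp (chr11:100574689-100574903): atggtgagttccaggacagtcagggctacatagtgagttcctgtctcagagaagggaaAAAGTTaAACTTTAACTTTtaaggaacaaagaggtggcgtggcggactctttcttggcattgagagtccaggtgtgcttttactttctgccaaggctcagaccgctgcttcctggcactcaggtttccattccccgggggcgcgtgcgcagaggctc

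The core occurred 3 times before Cnp, 1 time before Pdgfra and 1 time before Cspg4, and these letters were not in the Olig2 window. Among all 32851 promoter windows of 300 bases in the same table, 14.1% held the core on either strand. A match of 6 letters is a description of the sequence and shows no binding. Olig1 and Olig2 lie side by side on chromosome 16, with Olig2 at chr16:91225457-91228677 and Olig1 at chr16:91269772-91271933 in the GENCODE annotation of mm10, 41094 bases apart.

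All 8 genes but Cspg4 had their highest mean level in the cells named Oligodendrocytes. The level of a gene is given as its share of all values summed over the cells of a type in a library, per 1000000 (CPM). Levels were compared over 18 cell types, leaving out any that a library held with fewer than 100 cells, and a level is compared only with levels of the same gene. Oligodendrocytes made up 412, 549 and 241 cells of the libraries labelled HET, HOM and WT, or 3.41% (95% exact interval 3.10 to 3.75), 4.01% (3.69 to 4.35) and 2.29% (2.02 to 2.60) of their cells.

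Genes of precursors were present in these cells, and most genes of mature oligodendrocytes were at or near 0. The list of 22 precursor genes summed to 12655, 15675 and 13571 CPM in the libraries labelled HET, HOM and WT, and that of 23 myelin and mature genes to 985, 999 and 815 CPM, most of it from Cd9 (497, 537 and 382 CPM) and Cnp. Lhfpl3, a precursor marker, was at 1072, 1278 and 934 CPM, and Ptprz1, a receptor phosphatase of glial progenitors, was at 2785, 3387 and 3112 CPM, whereas Neu4, a sialidase on the same list, was at 0, 5.93 and 0 CPM. Mag and Mal, both myelin membrane proteins, were at 0 CPM in all 3 libraries, and Myrf, the transcription factor that starts myelin gene expression, was at 8.04, 5.93 and 3.41 CPM. The name Oligodendrocytes therefore covers cells with precursor markers in these data. Of markers of other cells, the neuronal list summed to 2196, 1955 and 2171 CPM with all 10 genes above 0, and the list of astrocytes and radial glia to 5187, 6271 and 3872 CPM with 12, 12 and 10 of 12 genes above 0. The fibroblast list summed to 24.1, 142 and 23.9 CPM with 1, 3 and 2 of 8 genes above 0 and Col1a1, Col3a1, Dcn, Lum and Col6a3 at 0, and the pericyte list to 46.2, 20.8 and 23.9 CPM with 4, 5 and 5 of 8 genes above 0 and Pdgfrb and Acta2 at 0. Their part in the values below was not tested.

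**Figure D1:**
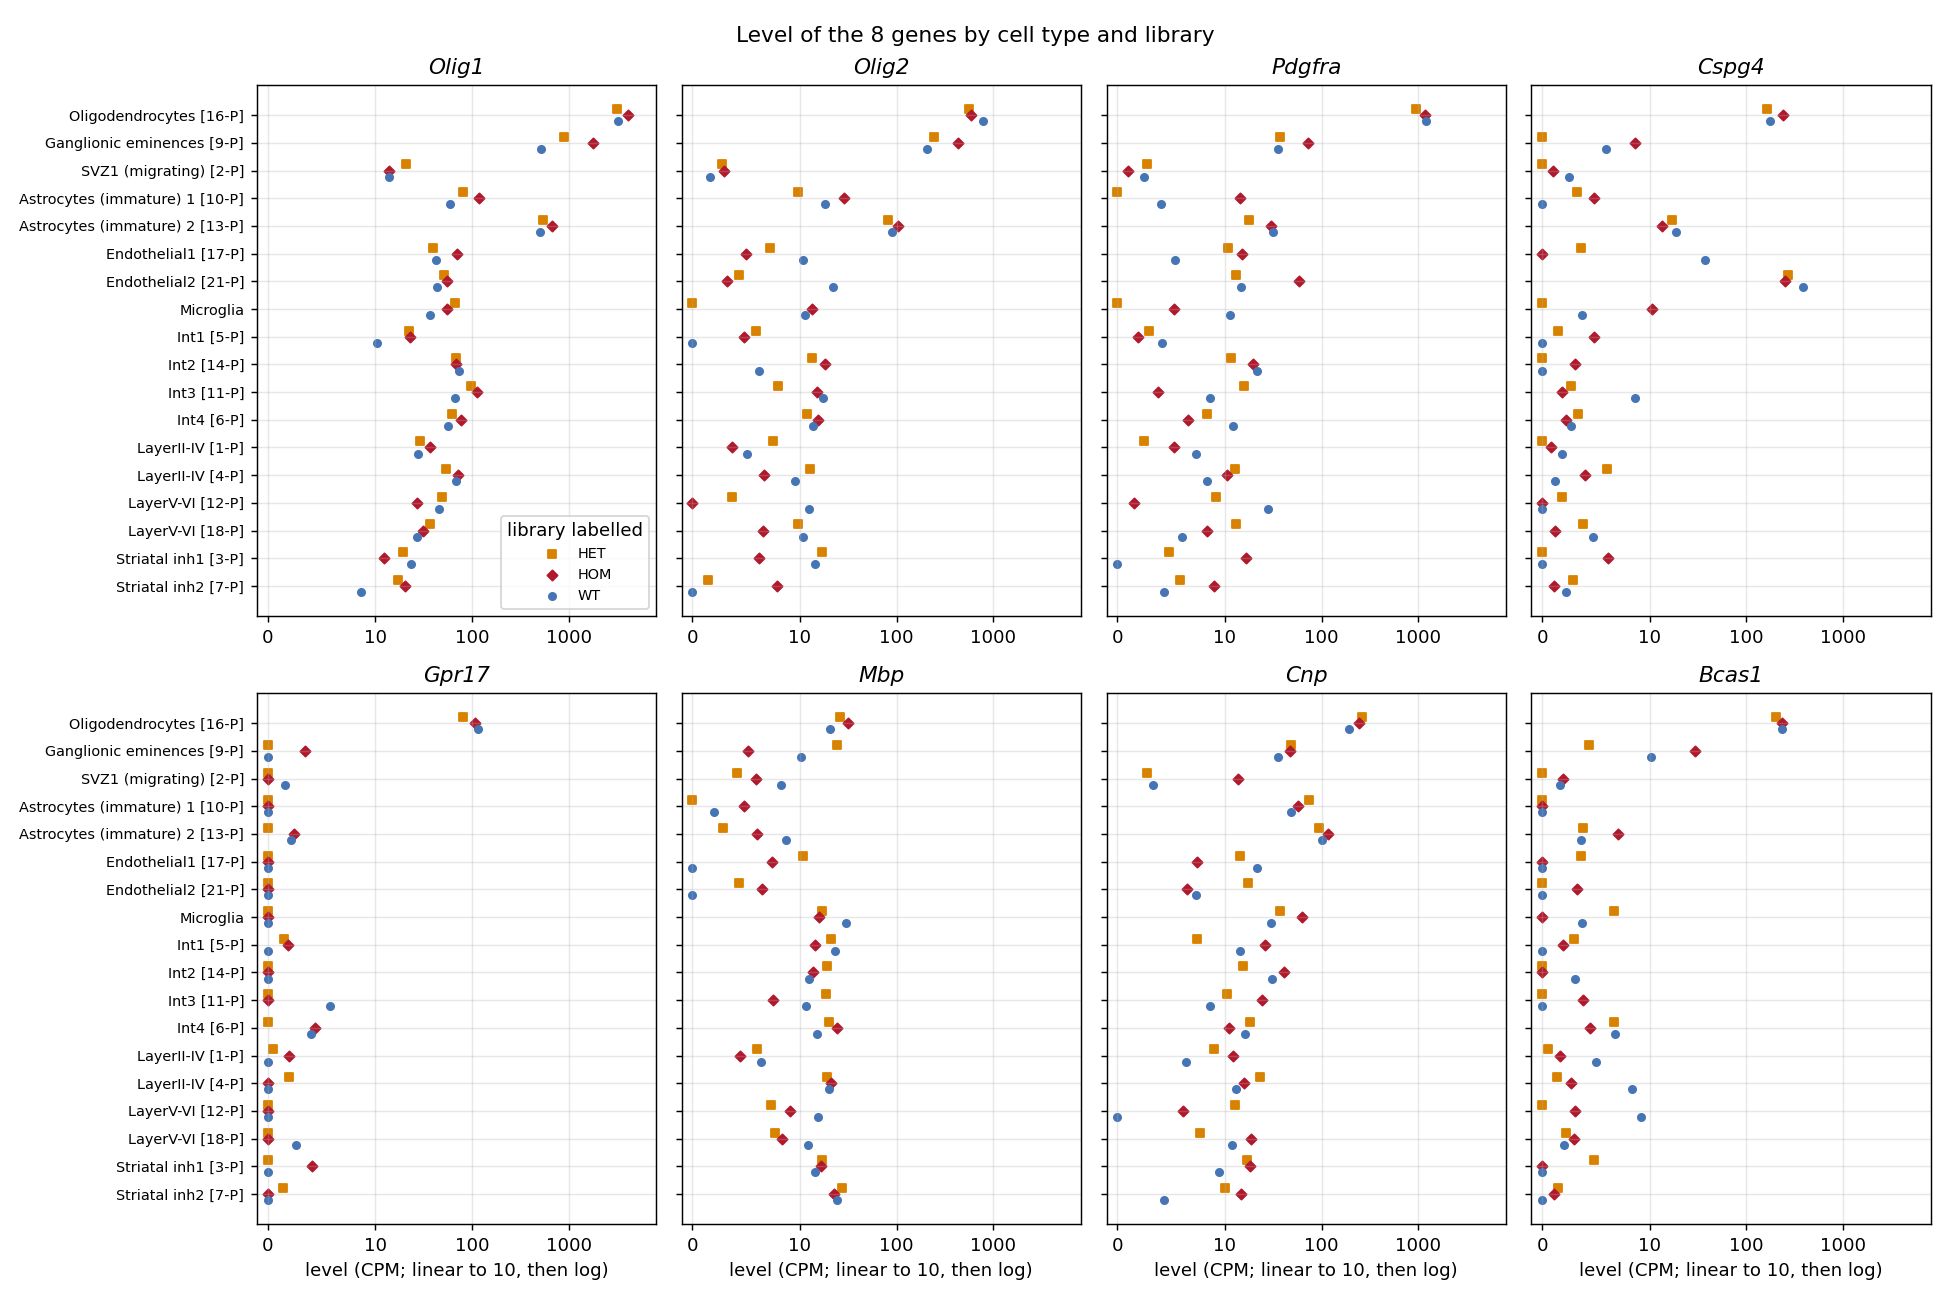
Level of each gene in CPM (horizontal axis, linear up to 10 and logarithmic above) in the 18 cell types that no library held with fewer than 100 cells, with 1 point for each library. Gpr17 and Bcas1 stand out in Oligodendrocytes, Olig1 and Olig2 extend to Ganglionic eminences and Astrocytes (immature) 2, Cspg4 is also high in Endothelial2, and Mbp is spread over many types.

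Olig1 was at 3161, 4122 and 3249 CPM in Oligodendrocytes of the libraries labelled HET, HOM and WT. It was detected in 354 of 412 cells (85.9%, 95% exact interval 82.2 to 89.1), 508 of 549 cells (92.5%, 90.0 to 94.6) and 211 of 241 cells (87.6%, 82.7 to 91.4). The next types in the order of levels were Ganglionic eminences, at 521 to 1780.0 CPM, and Astrocytes (immature) 2, at 509 to 677 CPM, which overlapped each other. Neuronal types lay between 8.72 and 113 CPM. Of the 4597 cells with any Olig1, 23.3% were Oligodendrocytes, 11.8% were Ganglionic eminences and 43.7% were Astrocytes (immature) 2, a type of 1859, 2549 and 1300 cells in HET, HOM and WT. Free RNA may add to such counts, and its amount was not estimated. In Microglia, which should lack the gene, 2.83% to 5.76% of cells carried Olig1, and the source of these counts was not tested. Microglia had median depths of 760.0, 818 and 741 molecules, against 1382, 2260.0 and 1282 molecules in Oligodendrocytes.

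Olig2 was at 557, 581 and 784 CPM in Oligodendrocytes. As for Olig1, Ganglionic eminences came next, at 207 to 430.3 CPM, then Astrocytes (immature) 2 at 81.7 to 104 CPM, and the order of the lower types differed. In the levels of Olig2 these neighbours did not overlap between libraries. Microglia carried Olig2 in 0 to 1.45% of cells. Of 1621 cells with Olig2, 36.1% were Oligodendrocytes.

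Pdgfra was at 939, 1164 and 1193 CPM in Oligodendrocytes of the libraries labelled HET, HOM and WT. No other large type passed 72.6 CPM, the level in Ganglionic eminences of the library labelled HOM, and 65.3% of the 1067 cells with Pdgfra were Oligodendrocytes. It was detected in 50.7% (45.8 to 55.7), 62.8% (58.6 to 66.9) and 59.3% (52.8 to 65.6) of these cells.

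Cspg4 was not highest in the oligodendrocyte lineage. It stood at 163, 240.1 and 177 CPM in Oligodendrocytes, and at 268, 251 and 389 CPM in the cells named Endothelial2, above Oligodendrocytes in each of the 3 libraries. Endothelial2 cells had high levels of the pericyte genes Rgs5 (8332, 5289 and 7412 CPM), a regulator of G-protein signalling, and Kcnj8 (1799, 1328 and 1548 CPM), a potassium channel. The whole list of pericyte and mural genes summed there to 18666, 13998 and 16915 CPM, and the fibroblast list, at 3400.1, 22108 and 2877 CPM, was above it in HOM. Cspg4-positive cells of Endothelial2 carried Kcnj8 in 43 of 48, 51 of 56 and 34 of 39 cells, and Sox10 was found in none of the 201, 260 and 114 Endothelial2 cells (upper exact limits 1.82%, 1.41% and 3.18%). Of 544 cells with Cspg4, 43.4% were Oligodendrocytes and 26.3% Endothelial2.

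By the share of their positive cells, Gpr17 and Bcas1 were the members most restricted to Oligodendrocytes, while by level Pdgfra exceeded its highest level elsewhere by more than Bcas1 did. Gpr17, which encodes a receptor of committed precursors, was at 80.4, 107 and 116 CPM there and at no more than 5.76 CPM in any other large type, and 80.2% of its 167 positive cells were Oligodendrocytes. No Microglia carried it. Bcas1 was at 203, 234 and 232 CPM, with 29.4 CPM in Ganglionic eminences of the library labelled HOM as the highest level elsewhere, and 71.9% of its 388 positive cells were Oligodendrocytes. Sox10, the transcription factor used as the lineage reference, was restricted to a like degree, with 76.2% of 664 positive cells.

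Cnp, an enzyme of the myelin membrane, was at 259, 245 and 194 CPM in Oligodendrocytes, and was also present in astrocytes. Astrocytes (immature) 2 came next at 93.1 to 117 CPM and Astrocytes (immature) 1 after them at 48.7 to 75 CPM, with no overlap between neighbours in this order. Ganglionic eminences at 35.4 to 48.3 CPM and Microglia at 29.8 to 63.5 CPM overlapped. Of 1331 cells with Cnp, 41.0% were Astrocytes (immature) 2 and 21.5% Oligodendrocytes.

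Mbp did not mark Oligodendrocytes at this age. Its level there was 26.1, 31.1 and 20.5 CPM in the libraries labelled HET, HOM and WT, and it was detected in 13 of 412, 17 of 549 and 6 of 241 cells. Striatal inh2 neurons had 22.4 to 27.5 CPM, LayerII-IV [4-P] neurons 18.9 to 21.1 CPM and Microglia 15.9 to 29.8 CPM, all overlapping the levels in Oligodendrocytes. Only 8.26% of the 436 cells with Mbp were Oligodendrocytes. The Mbp locus is known to give, besides myelin basic protein, the Golli transcripts made in neurons and immune cells, and counts per gene do not separate the transcripts.

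The profile over cell types placed the members in several groups. Likeness was the Pearson correlation of log2(CPM + 10) over the 18 types, with the mean of the 3 libraries taken first. The types share libraries and may share free RNA, so likeness is a description. The profile most like that of Olig1 was Olig2 (r = 0.97), followed by Dbx2 (0.95) and Nkx2-2 (0.92), both homeobox genes of progenitors. Pdgfra was most like Shc4 (0.97), Sox10 (0.96) and C1ql1 (0.95), and Bcas1 was most like Sox10 (0.98), Shc4 (0.96) and Pdgfra (0.95). Gpr17 was most like Bcas1, Matn4 and Shc4 (0.96 each), on a sparse gene. Olig2 was most like Olig1 (0.97), 2810468N07Rik (0.96) and Sox8 (0.94).

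Cspg4 and the myelin pair stood outside that group. The genes most like Cspg4 were Spry4 (0.95), an inhibitor of receptor tyrosine kinase signalling, Eps8 (0.94) and Itpr2 (0.91). The genes most like Cnp were Car8 (0.95), Ednrb (0.93), the endothelin receptor of glia, and Bcan (0.92), a proteoglycan of glial matrix. Those most like Mbp were Wdr55 (0.89), Gpatch4 (0.82) and Coa6 (0.79), none of them a myelin gene.

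Between genotypes, no member differed by 1.5-fold in Oligodendrocytes. The log2 ratio of CPM to the library labelled WT was taken for genes with a sum of at least 50 over both libraries, which 7 of the 8 members reached and Mbp did not. In the library labelled HET, 0 of 7 members were past 1.5-fold in either direction, where 5.90% of all 3152 genes were higher and 7.20% lower by that much. In the library labelled HOM, 0 of 7 members were past it, where 8.16% of 3640 genes were higher and 11.0% lower. The median log2 ratio of the 7 members was −0.19 in HET and 0.01 in HOM, beside 0.01 and −0.01 over all genes. At these background shares few of 7 genes would lie past the fold, so the count of 0 is near the background.

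Olig2 was lower in both mutant libraries, at 557 CPM in HET and 581 CPM in HOM against 784 CPM in WT. The log2 ratios were −0.49 and −0.43. Gpr17 had 80.4 CPM in HET and 107 CPM in HOM against 116 CPM in WT, with log2 ratios of −0.53 and −0.12. Both genes lay lower in each mutant library than in WT, by less than 1.5-fold. Cnp was the member higher in both, at 259 CPM in HET and 245 CPM in HOM against 194 CPM in WT, with log2 ratios of 0.42 and 0.33.

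Olig1 and Cspg4 were higher than WT in HOM and close to WT in HET. Olig1 had log2 ratios of −0.04 in HET and 0.34 in HOM, and Cspg4 of −0.12 and 0.44. In cells of at least 1000 and at least 2000 molecules the HET ratio of Olig1 was 0.08 and 0.07, so its sign depended on the cells taken. Pdgfra was lower in both, at −0.35 in HET and −0.04 in HOM, and Bcas1 was at −0.19 and 0.01. The library labelled HOM had the highest level of Olig1 and of Cspg4 and also the deepest cells, at a median of 2260.0 molecules. Cells of the library labelled HOM had a median of 3.41% mitochondrial molecules in this type, against 4.82% in HET and 4.19% in WT, and the part of depth and cell quality in these values was not tested.

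Shares of positive cells are set by depth as well as by level, so they were also taken in cells of 1000 to 3000 molecules. In that band Pdgfra was detected in 53.7% of HET cells (95% exact interval 43.8 to 63.3, 108 cells), 60.5% of HOM cells (51.5 to 69.0, 129 cells) and 70.7% of WT cells (59.6 to 80.3, 82 cells). Olig2 was detected in 46.3% (36.7 to 56.2), 45.0% (36.2 to 54.0) and 54.9% (43.5 to 65.9). The intervals of the 3 libraries overlapped for each of these genes. Cnp was detected in 30.6% (22.1 to 40.2) of HET, 16.3% (10.4 to 23.8) of HOM and 20.7% (12.6 to 31.1) of WT cells in the band, with intervals that overlapped. Over all Oligodendrocytes the Cnp shares were 25.7% in HET, 24.2% in HOM and 19.5% in WT. The level of Cnp was not taken in the band.

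**Figure D2:**
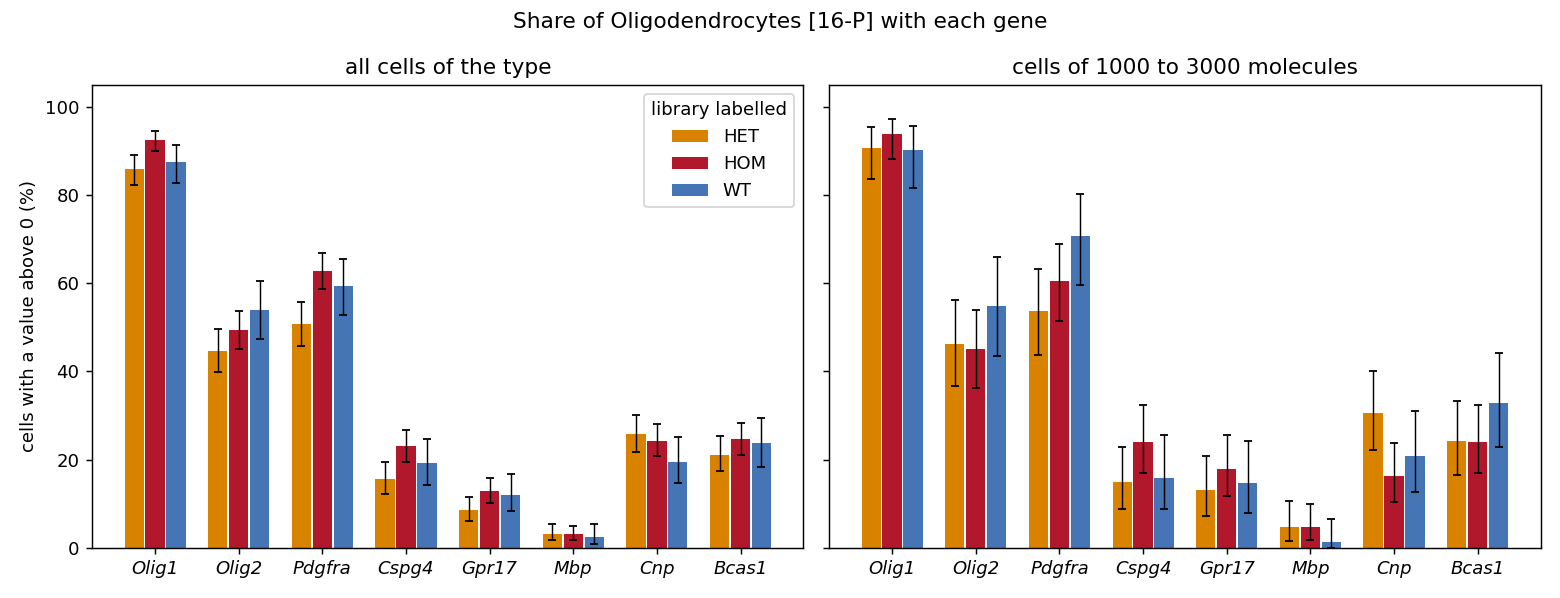
Percentage of Oligodendrocytes with a value above 0 for each gene (bars) with 95% exact binomial intervals (lines), for all cells and for cells of 1000 to 3000 molecules. Olig1 was found in 85.9% to 92.5% of all cells and Mbp in 2.49% to 3.16%, and libraries overlap for most genes.

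The wider lineage lists in Oligodendrocytes are read against the 5.90% of all genes higher and 7.20% lower past 1.5-fold in HET, and the 8.16% and 11.0% in HOM. Of 22 precursor genes, 21 were tested, with 0 past 1.5-fold in HET and 2 higher and 0 lower in HOM (medians −0.12 and 0.27). The 2 were C1ql1, a complement-like secreted protein, at 420.2 CPM in HET and 633 CPM in HOM against 358 CPM in WT, and Gpr37l1, an orphan receptor of glia, with a log2 ratio of 0.71 in HOM. Genes named here because they were among few past the fold were singled out after their values were seen. The list of committed and premyelinating genes had 0 of 6 past the fold in HET and 2 higher and 0 lower of 7 in HOM (medians −0.13 and 0.26). The 2 were Itpr2, a calcium release channel (log2 ratio 0.62), and Lims2 (1.26). The list's highest genes beside Bcas1 were Sirt2, a deacetylase, at 179, 248 and 187 CPM, Fyn, a kinase of myelination, at 187, 197 and 222 CPM, and Opcml, an adhesion molecule, at 197, 216 and 181 CPM in the libraries labelled HET, HOM and WT.

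Of 23 myelin and mature genes in the table, only 3 had enough counts to compare, and 4 were at 0 in all 3 libraries. Besides Cnp the genes compared were Cd9, a tetraspanin, with log2 ratios of 0.38 in HET and 0.49 in HOM, and Mgst3, a microsomal glutathione transferase, which was lower past the fold in both (42.2 CPM in HET and 51.9 CPM in HOM against 98.9 CPM in WT). Mgst3 lay close to the minimum sum in HET and reached it partly through WT, where it was high. Among cholesterol and myelin lipid genes, 1 was higher and 2 lower of 11 in HET, and 0 higher and 2 lower of 10 in HOM (medians −0.06 and 0.10). Dhcr7 was the gene higher in HET (log2 ratio 0.76), Scd2 was among the genes lower there (−0.60), and Fasn, the fatty acid synthase, was among those lower in HOM (−0.63).

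Of 33 lineage transcription factors, 21 were tested in HET with 0 past the fold, and 23 in HOM with 2 higher and 4 lower (medians −0.14 and 0.06). The 2 higher in HOM were Myt1l itself and Hes5 (log2 ratio 0.83), and the lower ones included Zeb2 (−1.03), Tcf4 (−0.76) and Nfib (−0.61). Sox10 had log2 ratios of −0.22 in HET and 0.04 in HOM. Myt1, the relative of MYT1L used by oligodendrocyte precursors, was at 167, 205 and 191 CPM in the libraries labelled HET, HOM and WT. Myt1l was at 76.4, 108 and 34.1 CPM in Oligodendrocytes, in the same order of libraries as over all cells. In the list of growth factor signalling genes, 0 of 8 were past the fold in HET and in HOM Spry4 was higher (0.76) and Igf1r, the insulin-like growth factor receptor, lower (−0.86) of 8 (medians −0.20 and 0.08). Ccnd1, a cyclin of cell cycle entry, had log2 ratios of 0.03 and 0.52.

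**Figure D3:**
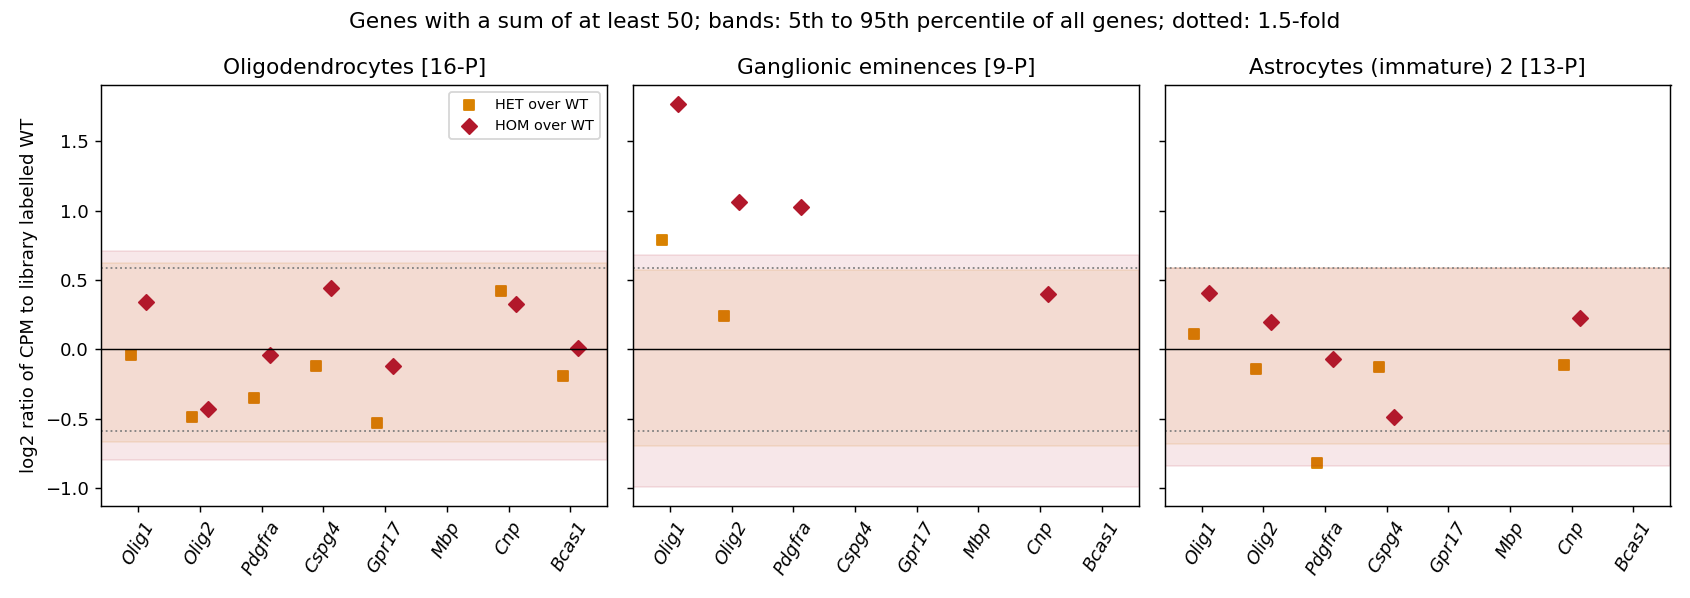
Log2 ratio of CPM of the libraries labelled HET (squares) and HOM (diamonds) to the library labelled WT, for members with a sum of at least 50 in 3 cell types. Shaded bands span the 5th to 95th percentile of all genes, dotted lines mark 1.5-fold, and in Ganglionic eminences Olig1, Olig2 and Pdgfra of HOM lie above the band, at 1.77, 1.06 and 1.03.

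Ratios were taken in 6 cell types, and among members that reached the minimum sum the largest was in the progenitors named Ganglionic eminences, the ventral forebrain zone that gives rise to interneurons and to early oligodendrocyte precursors. This type held 356, 445 and 542 cells of the libraries labelled HET, HOM and WT. Olig1 was at 902 CPM in HET and 1780.0 CPM in HOM against 521 CPM in WT, with log2 ratios of 0.79 and 1.77 (1.73-fold and 3.41-fold). Both mutant libraries were above WT, and HOM above HET.

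Olig2 was at 244 CPM in HET and 430.3 CPM in HOM against 207 CPM in WT, with log2 ratios of 0.24 and 1.06. Pdgfra was at 37.3 CPM in HET and 72.6 CPM in HOM against 35.4 CPM in WT, and reached the minimum sum in HOM only, with a log2 ratio of 1.03. Cnp was at 48.3 CPM in HET and 46.7 CPM in HOM against 35.4 CPM in WT, with a log2 ratio of 0.40 in HOM. Thus 1 of 2 members tested was higher by 1.5-fold in HET, where 4.94% of 3886 genes were higher and 8.03% lower, and 3 of 4 members tested were higher in HOM, where 6.95% of 4016 genes were higher and 17.9% lower. The members that reached the minimum did so partly through the library in which they were high.

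Sox10 and Bcas1, too sparse for a ratio, had their highest values in HOM as well. Sox10 was found in 10 of 356 cells of HET (2.81%, 95% exact interval 1.36 to 5.11) and 29 of 445 cells of HOM (6.52%, 4.41 to 9.23), against 6 of 542 cells of WT (1.11%, 0.407 to 2.39). Bcas1 was at 4.39 CPM in HET and 29.4 CPM in HOM against 10.3 CPM in WT. Of the other members too sparse for a ratio, Cspg4 and Gpr17 were at 8.64 and 3.46 CPM in HOM, their highest value, but on very few cells. Cspg4 was found in 0, 3 and 3 cells of HET, HOM and WT, and Gpr17 in 0, 2 and 0 cells. Mbp was lowest in HOM, at 24.2 CPM in HET and 5.18 CPM in HOM against 10.3 CPM in WT. The list counts in this type are read against 4.94% of all genes higher and 8.03% lower in HET, and 6.95% and 17.9% in HOM. Of the 22 precursor genes, which include Olig1, Olig2 and Pdgfra, 11 were tested in HET with 2 higher and 0 lower, and 13 in HOM with 7 higher and 1 lower (medians 0.21 and 0.66, beside −0.00 and −0.09 over all genes). Pdgfra and Lhfpl3 (83 CPM in HOM against 10.3 CPM in WT) reached the minimum sum in HOM only, partly through the library in which they were high. They add to its count and median. Of the 18 committed and premyelinating genes only Sirt2, Fyn and Mycl were tested, with 0 higher and 2 lower of 3 in HET and in HOM (medians −0.70 and −0.86). The lower ones were Sirt2 and Mycl in HET, and Fyn and Mycl in HOM. The other genes, Gpr17 and Bcas1 among them, were too sparse, so these counts do not describe the list as a whole. Of the lineage transcription factors 3 were higher and 1 lower of 22 in HET, and 5 higher and 4 lower of 22 in HOM (medians −0.09 and −0.01). Ednrb was past the fold in both, at 169 CPM in HET and 263 CPM in HOM against 93.1 CPM in WT, as was Hes5, a Notch target of radial glia, at 463 CPM in HET and 929.8 CPM in HOM against 266 CPM in WT. Lower past the fold in both were Mycl, a MYC family factor (log2 ratios −0.92 in HET and −1.33 in HOM), Id4, an inhibitor of bHLH factors (−1.08 and −1.52), and Igf1r (−0.79 and −1.32).

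Depth differed between the libraries in this type, with medians of 4032, 6050.0 and 3544 molecules in HET, HOM and WT. The share of cells with Olig1 was 39.0% (33.9 to 44.3) in HET and 57.8% (53.0 to 62.4) in HOM against 27.1% (23.4 to 31.1) in WT. In cells of under 1000 molecules it was 33.3% in HET and 43.9% in HOM against 17.1% in WT, and in cells of 9000 or more it was 38.1% in HET and 69.1% in HOM against 26.7% in WT. In each of 6 depth bands the library labelled HOM had the highest share and the highest CPM of Olig1. In the band of 1000 to 2000 molecules HET, at 40.0%, was not above WT, at 42.4%.

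**Figure D4:**
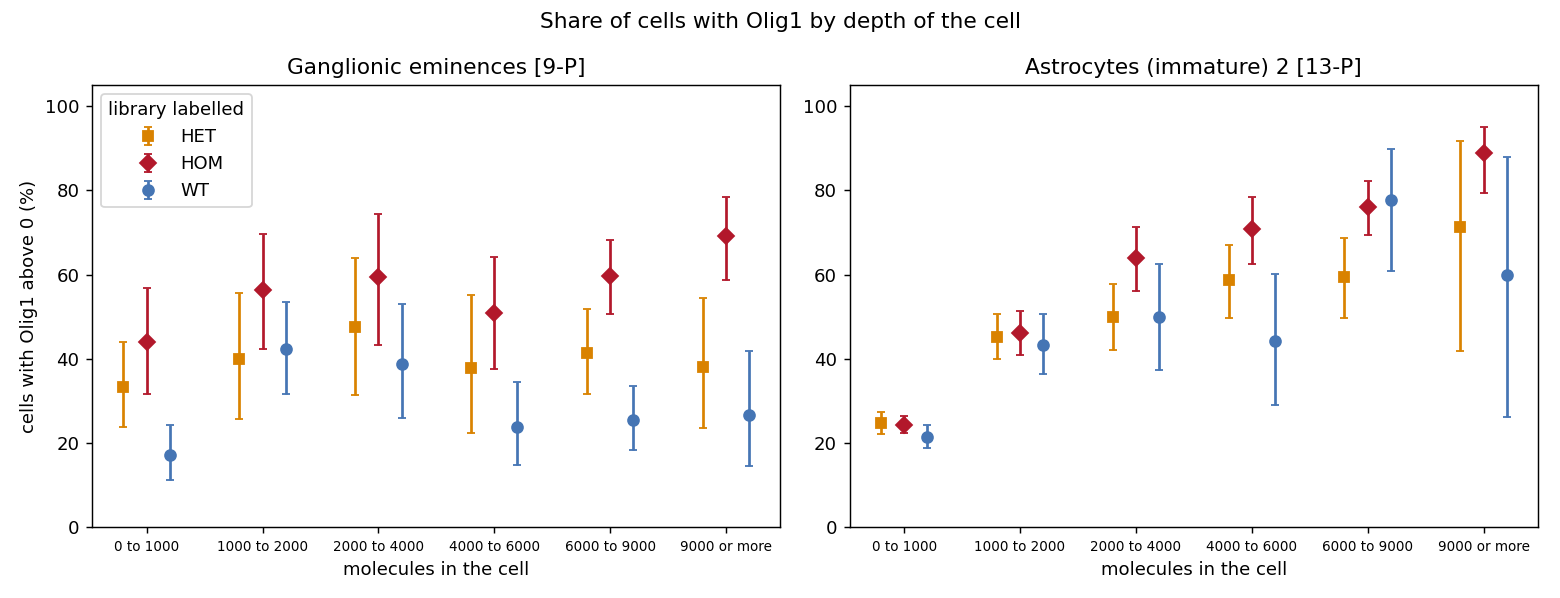
Percentage of cells with Olig1 above 0 (vertical axis) by the number of molecules in the cell (horizontal axis), with 95% exact binomial intervals, in Ganglionic eminences and Astrocytes (immature) 2. In Ganglionic eminences of 9000 or more molecules the share was 38.1% in HET and 69.1% in HOM against 26.7% in WT, and in astrocytes it ranged over the libraries from 43.4% to 46.2% at 1000 to 2000 molecules and was 58.6% in HET and 70.8% in HOM against 44.2% in WT at 4000 to 6000.

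Ganglionic eminences cells with Olig1 differed from the other cells of the type in the same genes in each library. They carried Olig2 in 46.8%, 59.9% and 51.0% of cells in HET, HOM and WT, against 5.53%, 3.72% and 5.57% of the cells without Olig1. Dlx2, a homeobox gene of the interneuron lineage, showed the reverse, at 7.91%, 8.17% and 9.52% of cells with Olig1 and 40.1%, 45.2% and 34.4% of cells without. Dlx1 (7.19%, 7.39% and 10.9% against 42.9%, 46.8% and 41.8%) and the neuronal tubulin Tubb3 (15.1%, 17.1% and 21.1% against 47.5%, 58.5% and 43.5%) were split in the same way. Fabp7, a lipid-binding protein of radial glia, was found in 82.7%, 87.5% and 72.1% of cells with Olig1 and 50.2%, 51.1% and 45.3% of cells without. Mki67, a proliferation gene, was found in 41.5% to 45.2% of both kinds of cell.

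The balance of cells with and without detected Olig1 differed between the libraries. Cells with Olig1 in this type made up 1.15% (0.969 to 1.36) of all cells in HET and 1.88% (1.66 to 2.12) in HOM against 1.40% (1.18 to 1.64) in WT. Cells of the type without Olig1 made up 1.80% (1.57 to 2.05) in HET and 1.37% (1.19 to 1.58) in HOM against 3.76% (3.41 to 4.14) in WT. In HET the share of cells with detected Olig1 was not above WT and the share without it was lower. In HOM the share with it was higher and the share without it lower. Detection is set by depth as well as by level, and this split was not matched for depth. Among the cells with Olig1 its level was 2264 CPM in HET and 3054 CPM in HOM against 1839 CPM in WT.

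Markers of other cells in this type moved too. The list of astrocytes and radial glia summed to 6380.2 CPM in HET and 7891 CPM in HOM against 4577 CPM in WT, with 12, 11 and 12 of 12 genes above 0. The list of ganglionic eminence progenitors, all 7 genes above 0, summed to 3241 CPM in HET and 2895 CPM in HOM against 3456 CPM in WT. The neuronal list summed to 2215, 2098 and 2285 CPM with all 10 genes above 0. The fibroblast list, at 30.7 CPM in HET and 128 CPM in HOM against 41.4 CPM in WT with 2, 6 and 2 of 8 genes above 0, had Lum and Col6a3 at 0. The part of these cells, of the dissected region and of depth in the Olig1 difference was not tested.

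In Astrocytes (immature) 2, Olig1 and Cnp lay within 1.5-fold of WT in both mutant libraries. In this type (1859, 2549 and 1300 cells of HET, HOM and WT) Olig1 was at 550.2 CPM in HET and 677 CPM in HOM against 509 CPM in WT, with log2 ratios of 0.11 and 0.41. It was detected in 35.7% (33.5 to 37.9) of HET and 38.1% (36.2 to 40.1) of HOM cells against 28.8% (26.4 to 31.4) of WT cells, at median depths of 860.0, 777 and 718 molecules. Olig2 had log2 ratios of −0.14 and 0.20, Cspg4 of −0.13 and −0.49, and Cnp of −0.11 and 0.23. Pdgfra was the member past 1.5-fold, at 17.7 CPM in HET and 29.8 CPM in HOM against 31.2 CPM in WT, with log2 ratios of −0.82 and −0.07. In HET 0 of 5 members were higher and 1 lower past the fold, where 5.27% of all genes were higher and 7.47% lower, and in HOM 0 of 5 were past it, where 5.06% were higher and 13.4% lower.

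Few of these astrocytes carried Sox10. Of cells with Olig1, 0.905%, 0.926% and 2.40% carried Sox10 in HET, HOM and WT, and 13.3%, 16.5% and 13.1% carried Olig2. The astrocyte and radial glia gene Slc1a3, a glutamate transporter, was found in 62.3%, 64.4% and 57.3% of the cells with Olig1 against 44.7%, 41.0% and 41.4% of those without. The cells with Olig1 were deeper, at medians of 1240.0, 1422 and 924 molecules against 758, 694 and 682 molecules.

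In Astrocytes (immature) 1 Olig1 was the 1 member tested, at 81.5 CPM in HET and 119.9 CPM in HOM against 58.8 CPM in WT. Its log2 ratios were 0.47 and 1.03, so 0 of 1 and 1 of 1 members were higher by 1.5-fold, where 4.79% of genes were in HET and 7.85% in HOM. These levels rest on 18, 21 and 26 cells with Olig1 in HET, HOM and WT. The fibroblast list there summed to 26.1 CPM in HET and 3204 CPM in HOM against 56.8 CPM in WT, with 3, 5 and 3 of 8 genes above 0 and Col1a1, Dcn and Col6a3 at 0, and its part was not tested. In SVZ1 (migrating) cells no member reached the minimum sum, and Olig1 was found in 1.39% to 2.14% of cells, below the share in Microglia.

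In Endothelial2, Cspg4 was at 268 CPM in HET and 251 CPM in HOM against 389 CPM in WT. The log2 ratios were −0.54 and −0.63, so Cspg4, the 1 member tested, was past the fold in HOM only, where 13.2% of genes were lower by that much, against 5.75% in HET. In cells of at least 2000 molecules the HOM value was −0.18. The composition of this type also differed, since Rgs5 was found in 98.0% of HET, 68.5% of HOM and 95.6% of WT cells. The fibroblast list summed to 3400.1 CPM in HET and 22108 CPM in HOM against 2877 CPM in WT, with 7, 8 and 4 of 8 genes above 0.

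Pdgfra in Endothelial2 went with the fibroblast genes. It was at 12.9 CPM in HET and 58.6 CPM in HOM against 14.7 CPM in WT. Col1a1, the main fibrillar collagen, was at 21.6 CPM in HET and 163 CPM in HOM against 0 CPM in WT, and Col1a2 at 242 CPM in HET and 553 CPM in HOM against 227 CPM in WT. Of the 12 Endothelial2 cells of HOM with Pdgfra, 9 carried Col1a2, 1 carried Rgs5 and 0 carried Sox10, whereas Rgs5 was found in 177 of the 248 cells without Pdgfra.

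Within Oligodendrocytes, the members were also counted in single cells. These counts rise with depth, and whether they exceed what the separate shares of the genes would give was not tested. The median cell carried 2, 3 and 3 of the 8 genes in HET, HOM and WT, and 26.9%, 37.7% and 34.0% of cells carried at least 4. Among cells of at least 2000 molecules (177, 286 and 97 cells) these shares were 54.2%, 63.6% and 66.0%. Cells with none of Olig1, Olig2, Pdgfra, Cspg4 and Sox10 numbered 35, 19 and 11, at median depths of 700.0, 627 and 619 molecules.

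Cells positive for one gene were deeper than cells negative for it, so co-detection was read in cells of at least 2000 molecules. Cspg4-positive cells there carried Pdgfra in 97.9% (88.9 to 99.9), 96.9% (91.1 to 99.4) and 94.1% (80.3 to 99.3) of cells in HET, HOM and WT. Cspg4-negative cells carried it in 75.2% (66.8 to 82.4), 78.4% (71.9 to 84.0) and 81.0% (69.1 to 89.8). The intervals did not overlap in HET and HOM and did in WT, where 34 cells were positive. Over all cells the shares were 89.1%, 89.7% and 91.3% against 43.7%, 54.8% and 51.8%, at median depths of 3566, 3943 and 3461 molecules against 1195, 1540.0 and 1163 molecules.

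Most cells with Gpr17 also carried Pdgfra, and a part of them carried Cspg4. Gpr17-positive cells of at least 2000 molecules carried Pdgfra in 21 of 22 cells of HET, 51 of 52 of HOM and 20 of 20 of WT, against 79.4%, 81.6% and 81.8% of Gpr17-negative cells. They carried Cspg4 in 54.5% (32.2 to 75.6), 53.8% (39.5 to 67.8) and 10 of 20 cells (27.2 to 72.8%), against 23.2% (16.8 to 30.7), 29.1% (23.3 to 35.3) and 31.2% (21.1 to 42.7). These intervals were apart in HET and HOM and overlapped in WT. The depths of the positive cells, 3599, 5072 and 4962 molecules, were not generally above those of the negative cells, 4397, 5484 and 4636 molecules.

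Gpr17 and Bcas1 are both markers of commitment, and in HOM few Gpr17-positive cells carried Bcas1. In cells of at least 2000 molecules Bcas1 was in 6 of 22 Gpr17-positive cells of HET (27.3%, 10.7 to 50.2), 8 of 52 of HOM (15.4%, 6.88 to 28.1) and 9 of 20 of WT (45.0%, 23.1 to 68.5). Gpr17-negative cells had 38.1% (30.4 to 46.2), 41.5% (35.1 to 48.1) and 35.1% (24.5 to 46.8). The intervals of positive and negative cells were apart in HOM and overlapped in HET and WT, and in WT the positive cells had the higher share. The difference between libraries was not tested. Co-detection was computed for every pair of the members and Sox10. The pairs described are a selection, and the intervals are not corrected for the number of pairs. Bcas1-positive cells carried Olig2 in 78.5%, 78.1% and 83.3% of cells against 62.5%, 66.9% and 72.1% of Bcas1-negative cells.

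**Figure D5:**
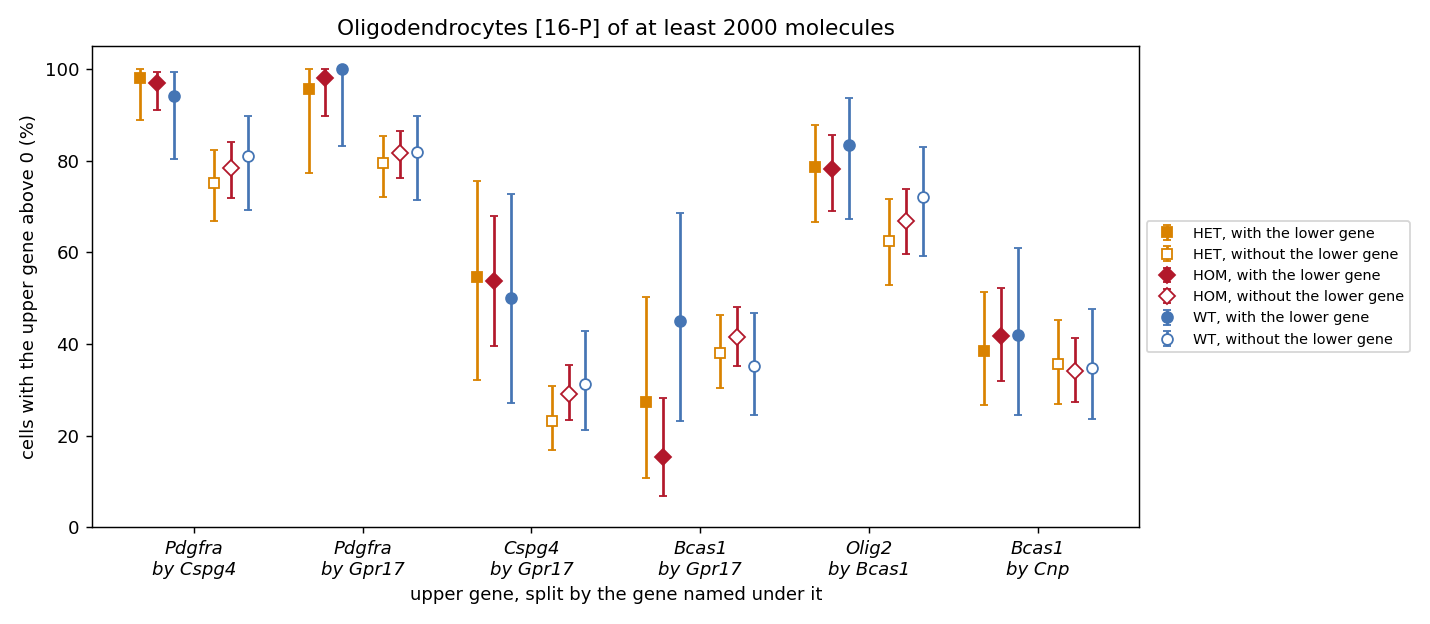
Percentage of Oligodendrocytes of at least 2000 molecules with the upper gene (vertical axis), split by whether the cell also had the gene named under it (filled, with; open, without), by library, with 95% exact binomial intervals. Pdgfra was in 94.1% to 100% of cells with Cspg4 or Gpr17. Bcas1 was in 15.4% of HOM cells with Gpr17 against 41.5% of those without, and the direction was the reverse in WT.

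The myelin genes showed little such pairing. In cells of at least 2000 molecules Cnp-positive cells carried Bcas1 in 38.5%, 41.8% and 41.9% of cells in HET, HOM and WT against 35.7%, 34.0% and 34.8% of Cnp-negative cells, with intervals that overlapped in each library. Pdgfra was in 78.5%, 79.6% and 83.9% of Cnp-positive cells against 83.0%, 87.2% and 86.4% of Cnp-negative cells, so cells with Cnp RNA also had precursor receptor RNA. Over all depths Mbp-positive Oligodendrocytes carried Cnp in 3 of 13, 5 of 17 and 2 of 6 cells, and Bcas1 in 3 of 13, 5 of 17 and 2 of 6 cells, numbers too small to set against the cells without Mbp.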

How the data were processed

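Cortical cells of newborn mice were methanol-fixed, tagged by sample and sequenced with the 10x 5′ chemistry. Per the labels and the study's methods, the authors aligned the reads to mm10 and counted molecules with Cell Ranger 4.0.0, filtered cells on features and mitochondrial share and removed blood cells in Seurat 4.0, and took cell type names from a published atlas by transfer. The sources used here do not give how doublets were treated. The deposited expression table holds whole-number scores that the authors had corrected for depth: a cell's values sum to 825 to 1952, against 499 to 17602 molecules in the deposited cell table, the 2 being equal in 617 of 36263 cells. Because these scores are not raw counts, no count model was fitted and no cells were thinned. The deposited percent of mitochondrial molecules and the transfer probability, a fraction, were read from the same cell table of the authors. The authors' tables of fold changes, p-values and shares of cells were not used.

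A gene's values were summed over the cells of a type in a library and divided by the sum of all genes, times 1000000 (CPM). Log2 ratios to the library labelled WT were taken for genes with a sum of at least 50 over both libraries, without a pseudocount, and a difference was called at 1.5-fold. Shares of cells have 95% Clopper-Pearson intervals. Likeness used genes with a sum of at least 200. The computation used Python 3.11.15, numpy 2.4.6, scipy 1.17.1 and pandas 2.3.3, and the ratios were tested on simulated data. Members, lists and marker genes were chosen with earlier results of these data known. Named genes were the members, Sox10, the 3 genes most like each member, up to 4 genes of highest level and up to 3 past 1.5-fold in both mutants from each lineage list, and Col1a1, Col1a2, Rgs5 and Kcnj8. Marker genes of cell types, and list genes past 1.5-fold in 1 mutant, were named outside this rule after their values were seen. The same holds for Neu4, Mag, Mal, Myrf, Myt1 and Xist. The lists in Ganglionic eminences, the depth bands and the splits of cells by Olig1 were added after seeing the data. Some genes that this rule names are not reported here.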

Additional observations from a re-analysis of the deposited data

Results flagged for a closer look

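Olig2 moved in opposite directions in 2 cell types of the mutant libraries. In Ganglionic eminences the log2 ratio to the library labelled WT was 0.24 in HET and 1.06 in HOM, whereas in Oligodendrocytes it was −0.49 in HET and −0.43 in HOM. The ratio in Ganglionic eminences minus that in Oligodendrocytes was 0.73 for HET and 1.49 for HOM. Each value rests on 1 library a genotype, both contrasts share the library labelled WT, and the difference was not tested.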

How the results depend on the processing

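No paired analysis was possible because each genotype was 1 library, and no replicate could be left out for the same reason. The log2 ratios in Oligodendrocytes were recomputed in cells of at least 1000 or 2000 molecules, with median-of-ratios scaling, with totals that leave out mitochondrial, haemoglobin and ribosomal RNA-like genes, as a mean over cells and at a transfer probability of at least 0.9, and, added after seeing the data, without cells whose barcode occurred in more than 1 library. All 97 values stayed within 1.5-fold. The same alternatives in Ganglionic eminences, added after seeing the data, left all 36 values on their side of the threshold: Olig1 ranged from 0.77 to 0.92 in HET and from 1.74 to 1.93 in HOM, Olig2 in HOM from 1.02 to 1.14 and Pdgfra in HOM from 0.86 to 1.48. Cspg4 in Endothelial2 crossed the threshold in 5 of 14 values, which lay from −0.64 to −0.28 in HET and from −0.69 to −0.18 in HOM, and in Astrocytes (immature) 2 of HOM it reached −0.62.

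The share of all genes past 1.5-fold in Oligodendrocytes depended on the minimum sum. At a minimum of 20, 683 genes (10.4% of 6542) were higher and 945 (14.4%) lower in HET, and 703 (10.0% of 6996) higher and 1351 (19.3%) lower in HOM. At 200 these were 13 (2.28% of 569), 8 (1.41%), 64 (8.48% of 755) and 15 genes (1.99%), and the cause was not tested. In cells of at least 1000 molecules Oligodendrocytes made up 3.86%, 4.84% and 2.84% of cells in HET, HOM and WT. Of the 24 shares of cells with a member, 8 left their interval in the band of 1000 to 3000 molecules, and with a pseudocount of 1, 15 of 24 genes most like a member were the same.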
